A study of Homo sapiens with 24 samples.

Results

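The comparison set LN18 cells given epigallocatechin-3-gallate together with hydroxychavicol (EGCG+HC) against LN18 cells given hydroxychavicol alone (HC). It asks what EGCG adds in cells that also receive HC. Its members are the 6 libraries of those groups, 3 each, of 24 libraries in the series, and the 25883 gene names that the tables of both groups list. LN18 is an established human glioblastoma line (grade IV), and the labels name no engineered allele. EGCG is the main catechin of green tea and HC a phenol of betel leaf. EGCG+HC cells received EGCG at 50 µg/ml and HC at 10 µg/ml, and HC cells received HC at 10 µg/ml, in each case for 24 h. The groups used beside them are LN18 given EGCG at 50 µg/ml, LN18 controls, and the line 1321N1 given EGCG at 50 µg/ml with HC at 20 µg/ml or HC at 20 µg/ml alone. Each had 3 libraries. The labels speak of independent tests for each treatment, without saying which cultures were separate, so p-values measure the spread between these libraries.

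Cells under stress in the endoplasmic reticulum (ER) or short of amino acids slow translation through kinases such as PERK and make the transcription factors ATF4 and CHOP, whose targets include a phosphatase subunit that restores translation. A separate control is set by sterols: when membrane cholesterol is low, SREBP transcription factors leave the ER and switch on cholesterol synthesis and uptake, and when sterols or INSIG proteins hold them back these genes fall together. Cells that leave the cycle lose the mRNA of mitosis genes, whose promoters often carry a short element called CHR. Catechols and electrophiles also induce HMOX1, which encodes heme oxygenase.

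The unit was RPKM, reads per kilobase of transcript per M counted reads. The libraries held 15.8 to 20.6 M counted reads, recovered from the steps between low values, so that 1 RPKM in a transcript of 2 kb stood for 31.6 to 41.1 reads. Replicates correlated at 0.9942 to 0.995 within EGCG+HC and at 0.991 to 0.9923 within HC, against 0.8511 to 0.8593 between the groups (Pearson's r of log2(RPKM + 1) across genes, which are not replicates). Mitochondrial genes took 9.02 ± 0.229% of the summed RPKM with EGCG+HC and 6.82 ± 0.38% with HC (SD, n = 3 each). Most glial markers were low in this line: GFAP averaged 0.122 RPKM with EGCG+HC and 0.257 RPKM with HC, SOX2 was listed at 0 with EGCG+HC, and only VIM and SLC1A3 of 11 glial markers passed the filter. VIM, an intermediate filament of glia and mesenchymal cells, had 171 ± 1.32 RPKM with EGCG+HC and 176 ± 4.14 RPKM with HC. Markers of other cell types were low, apart from CD68, a lysosomal protein of macrophages and other cells, which averaged 27.9 RPKM with EGCG+HC and 26.6 RPKM with HC. The summed neuron markers ranged from 1.37 to 1.8 RPKM with EGCG+HC and from 3.6 to 4.96 RPKM with HC, and the summed fibroblast markers from 1.32 to 1.44 RPKM with EGCG+HC and from 3.01 to 3.5 RPKM with HC, each with 1 member tested, which fell (-1.49 and -0.68). PTPRC of blood averaged 0.203 RPKM with EGCG+HC and 0.0247 RPKM with HC, EPCAM of epithelium 0.214 RPKM with EGCG+HC and 0.694 RPKM with HC, and DCN of fibroblasts 0.00933 RPKM with EGCG+HC and 0.00697 RPKM with HC.

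After genes averaging under 1 RPKM were left out, 14165 remained. Of these, 45.4% passed the threshold, and 2766 (19.5%) were higher and 3664 (25.9%) were lower with EGCG+HC than with HC, at a fold change of at least 1.5 and an adjusted p of at most 0.05 by limma. An adjusted p of at most 0.05 alone held for 81.5% of the genes, and the 3 libraries of one group lay beyond the 3 of the other for 83.3%. A gene said below not to pass can therefore have met the p limit and missed only the fold limit. Of the calls 57.0% were lower, against 51.6% under quantile normalization and 65.1% after rescaling. The median gene changed by -0.10 on the log2(RPKM + 1) scale. Rescaling the libraries to equal sums over genes other than mitochondrial ones moved that median by -0.11, and quantile normalization moved it by 0.07. Small changes of a list are read against these shifts. Before rescaling, the summed RPKM of all listed genes was 293404 to 294110 with EGCG+HC and 258341 to 269481 with HC.

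The 10 largest falls were in 8 genes with described products and 2 clone-named transcripts. F3 encodes tissue factor, which starts blood clotting (GRCh37, chr1:94994729-95007315, minus strand). It had 22.3, 20.9 and 20.6 RPKM with EGCG+HC, against 318, 331 and 335 RPKM with HC. F3 thus changed by -3.89 on the log2 scale (SE 0.04, limma adjusted p = 2.01e-08), and its groups were far apart. ID1, an inhibitor of differentiation factors and a target of BMP signals, had 4.46, 5.28 and 5.99 RPKM with EGCG+HC, against 64, 70.3 and 61 RPKM with HC. Its relative ID3 changed by -2.83. COL7A1, a collagen of anchoring fibrils, averaged 4.25 ± 0.221 RPKM with EGCG+HC and 53.2 ± 1.77 RPKM with HC. The other falls among the 10 largest were those of PADI3, a peptidylarginine deiminase (-3.12), STARD4, a cholesterol carrier (-3.04), the mitotic phosphatase CDC25B (-2.97), the organic anion exporter ABCC3 (-2.86), the nuclear noncoding RNA NEAT1 (-2.84) and 2 clone-named transcripts, AL031320.1 (-3.18) and CTD-2091N23.1 (-3.12).

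The 10 largest rises all belonged to transcripts that carry clone names and have no described function in the tables used. AC005682.6 had 32.8, 33.2 and 31.8 RPKM with EGCG+HC, against 0.396, 0.351 and 0.325 RPKM with HC. CTC-497E21.5 averaged 25.6 ± 1.04 RPKM with EGCG+HC and 0.326 ± 0.16 RPKM with HC. AC048382.4 had the largest log2 fold change of RPKM + 1 at 4.64, with 40, 33.3 and 36.2 RPKM with EGCG+HC and 1.14, 0 and 0.584 RPKM with HC. A further 3566 names appear in the EGCG+HC table and not in the HC table. They were not tested, and 15 of them reached a mean of 1 RPKM.

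**Figure D1:**
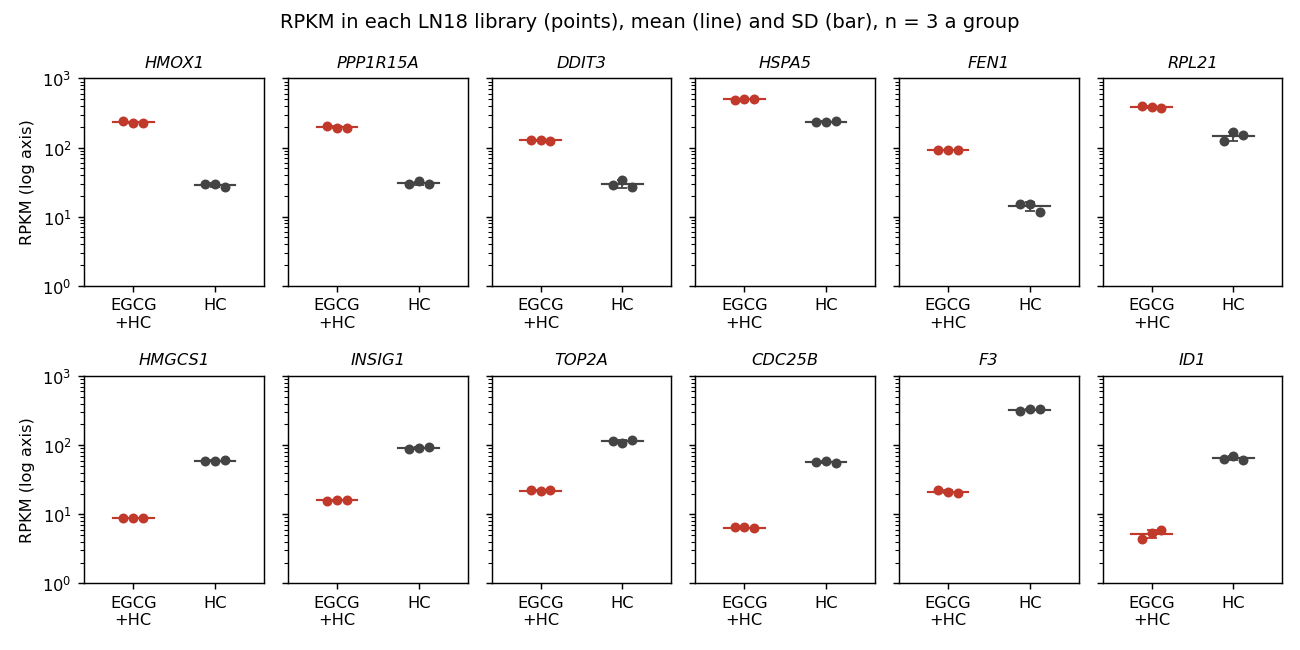
RPKM of 12 genes in each LN18 library on a log axis, EGCG+HC left and HC right, with the mean as a line and the SD as a bar (n = 3 a group). In the upper row the EGCG+HC libraries lie above the HC libraries (HMOX1 at 230 to 239 RPKM against 26.6 to 30 RPKM), and in the lower row they lie below them (F3 at 20.6 to 22.3 RPKM against 318 to 335 RPKM), without overlap in any panel.

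Stress genes split. HMOX1, heme oxygenase 1 (GRCh37, chr22:35776354-35790207, plus strand), had 239, 230 and 230 RPKM with EGCG+HC, against 29.4, 30 and 26.6 RPKM with HC, higher by 2.98 on the log2 scale (SE 0.05, limma adjusted p = 4.5e-08). PPP1R15A, the phosphatase subunit GADD34 that reverses the block on translation, had 204, 193 and 195 RPKM with EGCG+HC, against 29.8, 32.5 and 29.8 RPKM with HC. In both genes every EGCG+HC library lay far above every HC library. DDIT3, which encodes CHOP, had 129, 127 and 124 RPKM with EGCG+HC, against 28.6, 34.3 and 26.8 RPKM with HC.

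In the list built around PERK, ATF4 and CHOP, 25 genes were tested. Relative to control, HC alone had raised 17 of the 25 and lowered 0, against 9.48% and 2.26% of all genes. That comparison shares the HC libraries with this one. With EGCG+HC against HC, 10 rose, 4 fell and 11 did not pass, with a median of 0.18. Besides PPP1R15A (2.65) and DDIT3 (2.06), the rises included ATF3, a stress-induced repressor (2.01), SESN2, a brake on mTORC1 (1.47), EIF2AK3, the kinase PERK itself (1.36), the pseudokinase TRIB3 (0.96) and ATF4 (0.82). ATF4 averaged 399 ± 5.18 RPKM with EGCG+HC and 226 ± 11.9 RPKM with HC, and its change was 0.37 and no longer past the threshold under quantile normalization. ATF5 fell to 4.09 ± 0.125 RPKM with EGCG+HC, against 10.6 ± 0.264 RPKM with HC, and DDIT4, an mTORC1 inhibitor also called REDD1, fell to 192 ± 5.79 RPKM with EGCG+HC, against 414 ± 21.1 RPKM with HC. Other ATF4 targets did not pass: CHAC1, a glutathione-degrading enzyme, had 13.4 ± 1.26 RPKM with EGCG+HC and 12.4 ± 0.493 RPKM with HC, and GDF15, a stress cytokine, had 21.4 ± 1.53 RPKM with EGCG+HC and 27.9 ± 2.54 RPKM with HC.

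Amino acid genes, many of them ATF4 targets, mostly did not follow. Of 22 tested, 2 rose and 8 fell, against 19.5% and 25.9% of all genes. HC alone had raised 15 and lowered 0 of 22 relative to control. CTH, which makes cysteine from cystathionine, had 71.6, 71.4 and 72 RPKM with EGCG+HC, against 24.8, 26.6 and 26.6 RPKM with HC. CBS, the enzyme of the step before it, moved the other way, with 3.74, 3.59 and 3.63 RPKM with EGCG+HC and 24.2, 23.6 and 21.3 RPKM with HC. The subunits of the cystine importer also parted, SLC3A2 rising (0.62, but not past the threshold at 0.17 under quantile normalization and 0.50 after rescaling) and SLC7A11 falling (-0.70). Among 20 tRNA synthetase genes 7 fell and 1 rose: AARS, for alanine, had 75.6 ± 1.72 RPKM with EGCG+HC and 186 ± 1.24 RPKM with HC, whereas GARS, for glycine, had 275 ± 3.16 RPKM with EGCG+HC and 152 ± 3.99 RPKM with HC.

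ER chaperone genes were higher in 2 and lower in 5 of 22, neither share above that of all genes (19.5% and 25.9%). HC alone had raised 11 of the 22 and lowered 0 relative to control. The following are therefore values of single genes. HSPA5, the main ER chaperone BiP, had 490, 500 and 499 RPKM with EGCG+HC, against 230, 237 and 240 RPKM with HC (log2 fold change 1.07, SE 0.04, adjusted p = 2.54e-07). DNAJB9, its cochaperone, rose as well (1.18). HSP90B1, the ER form of HSP90, had 228, 237 and 233 RPKM with EGCG+HC, against 370, 386 and 387 RPKM with HC. Of 22 genes of ER stress sensing and degradation 2 rose, HERPUD1 of the degradation complex (1.74) and the transcription factor XBP1 (1.14), and 6 fell. The lower share was near that of all genes (25.9%) and the higher share was under it (19.5%).

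The ER stress response element, searched as CCAAT and CCACG set 9 bases apart, on both strands, in the 250 bases before the start site, was matched by 6 of 21 chaperone promoters (28.6%) and by 0.0806% of 27305 promoters in RefSeq (GRCh38.p14). A pair of these promoters is shown because both hold the element and the genes moved in opposite directions, HSPA5 up and CRELD2, an ER redox chaperone, down (-1.15). Capitals mark the match, which in CRELD2 reads on the other strand. HSPA5 is at chr9:125241366-125241434 (minus strand) and CRELD2 at chr22:49918529-49918597 (plus strand).
HSPA5: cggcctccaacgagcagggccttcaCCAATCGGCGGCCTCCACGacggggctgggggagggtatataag
CRELD2: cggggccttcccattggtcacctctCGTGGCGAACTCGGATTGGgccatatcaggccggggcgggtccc
A match describes the letters and was not tested as a binding site.

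NRF2 targets, which guard against electrophiles, went both ways, with 9 higher and 11 lower of 28. Relative to control, HC alone had raised 17 and lowered 0 of 28, so these changes start from a raised HC level. HMOX1 aside, OSGIN1, an oxidative stress growth inhibitor, rose to 66.3 ± 2.36 RPKM with EGCG+HC, against 25.5 ± 1.57 RPKM with HC, and GCLM (0.83), SRXN1 (0.81) and NFE2L2, which encodes NRF2 itself (0.91), were higher too. AKR1B10, an aldo-keto reductase, fell to 12.3 ± 0.373 RPKM with EGCG+HC, against 42.7 ± 1.05 RPKM with HC, and NQO1, a quinone reductase, was lower by -0.73. Among 26 heat shock genes 7 rose and 6 fell, where 19.5% and 25.9% of all genes did. The inducible HSPA1A had 77.1 ± 1.83 RPKM with EGCG+HC and 94.2 ± 6.36 RPKM with HC. Metallothioneins, which bind zinc and copper, were low: MT1X had 10.2, 8.25 and 9.28 RPKM with EGCG+HC, against 53.6, 61.8 and 50.9 RPKM with HC, and MT2A had 59.3 ± 2.13 RPKM with EGCG+HC and 266 ± 33 RPKM with HC. Of the catechol-handling genes, 3 of 7 were lower and 0 higher, among them CYP1B1 (-1.29) and CYP1A1 (-1.06), which oxidize aromatic compounds.

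**Figure D2:**
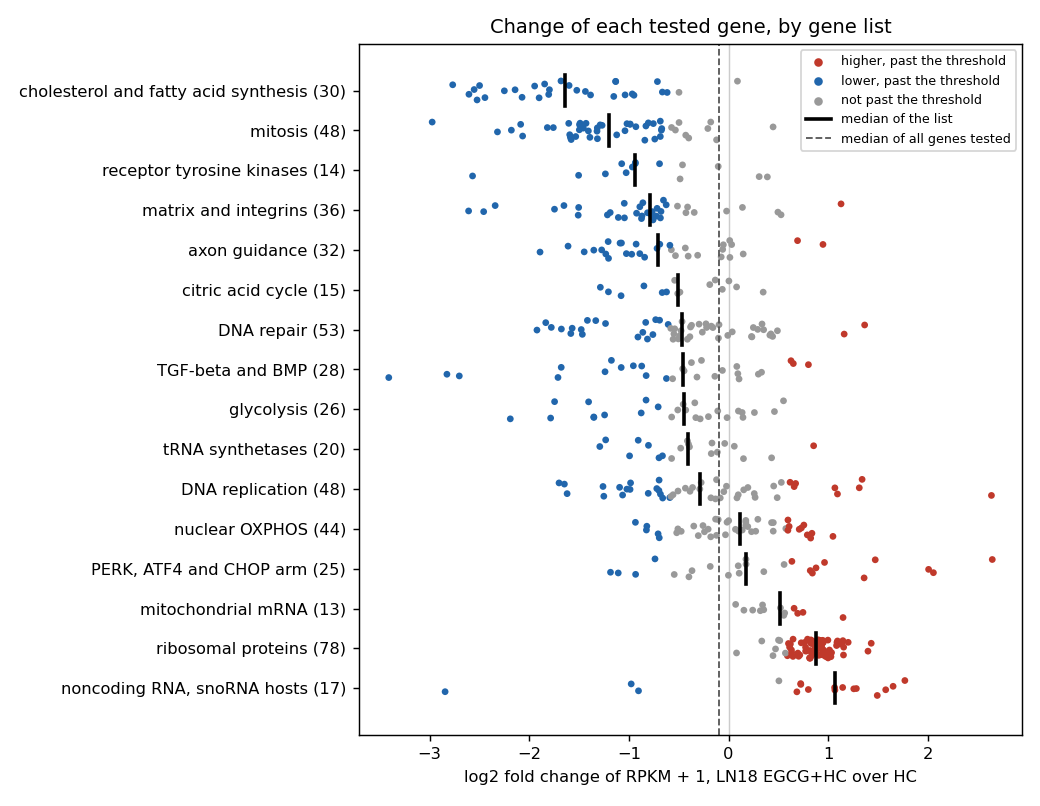
Log2 fold change of RPKM + 1, EGCG+HC over HC, for each tested gene of 16 lists, with the number of tested genes in brackets. Red and blue points are past the threshold (higher and lower), grey points are not, black bars are list medians and the dashed line is the median of all genes tested (-0.10). Cholesterol and fatty acid synthesis lies lowest at a median of -1.64, and ribosomal proteins (0.87) and noncoding RNAs with snoRNA hosts (1.06) lie highest.

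Cholesterol and fatty acid synthesis fell almost throughout: 28 of 30 tested genes were lower, 0 were higher, and the median was -1.64 against -0.10 over all genes. HMGCS1, which makes HMG-CoA for the pathway, had 8.97, 8.92 and 8.94 RPKM with EGCG+HC, against 58.9, 58.8 and 60.7 RPKM with HC (log2 fold change -2.60, SE 0.03, adjusted p = 2.01e-08). LSS, the cyclase that makes lanosterol, had 3.25, 3.22 and 3.1 RPKM with EGCG+HC, against 29, 26.9 and 26.8 RPKM with HC. The groups did not overlap in either gene.

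Other steps of the pathway ranged more widely. MVD (-2.55), IDI1 (-2.52) and DHCR7, the last reductase of cholesterol synthesis (-2.50), were among the largest changes. INSIG1, which holds SREBP in the ER and is itself an SREBP target, fell to 15.9 ± 0.12 RPKM with EGCG+HC, against 91.3 ± 2.72 RPKM with HC. The factors themselves were also lower, SREBF2 by -1.13 and SREBF1 by -1.52, as were the fatty acid genes FASN (-1.95) and SCD (-1.80). Only PMVK (4.45 ± 0.247 RPKM with EGCG+HC and 6.73 ± 1.02 RPKM with HC) and ELOVL6 (6.29 ± 0.231 RPKM with EGCG+HC and 5.86 ± 0.448 RPKM with HC) did not pass, and PMVK did after rescaling (-0.60). HC alone had raised 12 and lowered 0 of the 30 genes relative to control, where 9.48% of all genes were higher and 2.26% lower, a comparison that shares the HC libraries with this one. For MSMO1, a demethylase of the pathway, the means were 26.3 RPKM with EGCG+HC, 101 RPKM with HC, 62 RPKM with EGCG and 36.5 RPKM in controls. The EGCG+HC value was thus the lowest of the 4 groups in that gene, not only lower than the raised HC value.

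Mitosis genes fell nearly as widely, with 39 of 48 lower, 0 higher and a median of -1.20. TOP2A, the topoisomerase that untangles chromosomes, had 22.4, 21.5 and 22.1 RPKM with EGCG+HC, against 115, 108 and 119 RPKM with HC (log2 fold change -2.32, SE 0.04, adjusted p = 5.05e-08). CDC25B, which activates CDK1, had 6.45, 6.48 and 6.35 RPKM with EGCG+HC, against 57.8, 58.5 and 55.7 RPKM with HC. The kinetochore motor CENPE (-2.18) and the microtubule depolymerase KIF2C (-2.09) came next, and cyclin B1 (CCNB1, -1.32), PLK1 (-1.50) and AURKA (-1.32) were lower by less. Some members stayed close: FOXM1, the factor that drives many of these genes, had 25.2 ± 0.616 RPKM with EGCG+HC and 28.6 ± 0.72 RPKM with HC, and CDK1 had 23.1 ± 0.115 RPKM with EGCG+HC and 33.9 ± 2.11 RPKM with HC, past the threshold after rescaling only among the scalings (-0.65). BIRC5, survivin, was the member with the highest change and did not pass (0.45).

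The CHR element, searched as TTTGAA on both strands in the same window, was matched by 19 of 41 mitosis promoters (46.3%), by 8.54% of 9584 promoters of tested genes and by 13.6% of all promoters. Among mitosis genes that fell, 17 of 36 held it, and among those that did not pass, 2 of 5. Over all genes it did not follow the direction of change: 8.33% of the promoters of higher genes, 8.93% of those of lower genes and 8.38% of the rest held it. The stretches below show it in mitosis genes from the strongest to the weakest fall among those printed, with the match in capitals (TTCAAA is the same element on the other strand). TOP2A is at chr17:40418017-40418115 (minus strand), DLGAP5 at chr14:55191664-55191748 (minus), BUB1B at chr15:40161021-40161068 (plus), PLK1 at chr16:23678835-23678888 (plus), CCNB2 at chr15:59105092-59105145 (plus) and KIF23 at chr15:69414269-69414324 (plus), all in GRCh38.p14.
TOP2A: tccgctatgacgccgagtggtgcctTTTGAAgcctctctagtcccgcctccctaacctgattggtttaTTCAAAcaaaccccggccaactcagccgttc
DLGAP5: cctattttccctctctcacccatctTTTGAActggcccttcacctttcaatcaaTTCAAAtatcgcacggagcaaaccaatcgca
BUB1B: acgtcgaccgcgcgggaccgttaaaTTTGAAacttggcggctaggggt
PLK1: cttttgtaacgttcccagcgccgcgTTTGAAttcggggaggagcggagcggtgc
CCNB2: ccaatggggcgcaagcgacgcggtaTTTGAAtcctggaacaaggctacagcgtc
KIF23: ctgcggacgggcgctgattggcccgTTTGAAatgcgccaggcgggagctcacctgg
Their log2 fold changes were -2.32 for TOP2A, -2.07 for DLGAP5, -1.60 for BUB1B, -1.50 for PLK1, -1.29 for CCNB2 and -0.84 for KIF23.

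DNA replication genes did not follow mitosis genes as a block, with 8 higher and 17 lower of 48 (19.5% and 25.9% over all genes). FEN1, the nuclease that trims Okazaki fragments, had 92.8, 91.9 and 92.9 RPKM with EGCG+HC, against 15.3, 15.3 and 11.8 RPKM with HC (log2 fold change 2.64, SE 0.09, adjusted p = 2.87e-07). PCNA, the sliding clamp, had 321, 322 and 322 RPKM with EGCG+HC, against 118, 133 and 129 RPKM with HC. The licensing genes CDT1 (1.31), ORC1 (1.09) and MCM2 (1.07) rose with them. Polymerase subunits fell, POLA2 to 4.54 ± 0.487 RPKM with EGCG+HC, against 17 ± 0.562 RPKM with HC, and POLE to 2.26 ± 0.134 RPKM with EGCG+HC, against 9.23 ± 0.686 RPKM with HC. An E2F site (TTTCCCGC, both strands) was matched by 9 of 40 replication promoters (22.5%) and 2.24% of the promoters of tested genes, among them those of 2 of 7 genes that rose and 3 of 14 that fell.

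Cell cycle regulators also parted. E2F2, an activating E2F, rose to 8.66 ± 0.178 RPKM with EGCG+HC, against 1.41 ± 0.0947 RPKM with HC, and E2F3 rose too (25.8 ± 0.711 RPKM with EGCG+HC and 12.5 ± 0.339 RPKM with HC), while E2F1 did not pass (23 ± 0.849 RPKM with EGCG+HC and 23.6 ± 0.279 RPKM with HC). RBL2, the pocket protein p130 that holds resting cells, fell by 1.98 and cyclin D1 (CCND1) by 1.92 on the log2 scale. The CDK inhibitor CDKN1A, p21, had 28.1 ± 0.531 RPKM with EGCG+HC and 38.4 ± 1.97 RPKM with HC and did not pass. GADD45A, a growth arrest gene, had 118, 117 and 120 RPKM with EGCG+HC, against 30.5, 32.8 and 29.3 RPKM with HC. DNA repair genes were lower in 19 and higher in 2 of 53, where 25.9% of all genes were lower and 19.5% higher. The lower ones numbered 17 under quantile normalization and 26 after rescaling. BRCA1 had 5.45 ± 0.194 RPKM with EGCG+HC and 17 ± 1.71 RPKM with HC. Of 33 apoptosis genes 8 rose and 8 fell, near the shares of all genes, and the balance turned with scaling, at 9 higher and 3 lower under quantile normalization and 6 higher and 11 lower after rescaling. TNFRSF10D, a decoy receptor for TRAIL, rose to 44.1 ± 1.41 RPKM with EGCG+HC, against 7.46 ± 0.276 RPKM with HC, PMAIP1, the BH3-only protein NOXA, rose by 0.83, and ENDOG, a mitochondrial nuclease, fell by 1.08. MYC ranged from 8.23 to 9.77 RPKM with EGCG+HC and from 5.45 to 10 RPKM with HC, and its groups overlapped. Without HC replicate 1 the change of MYC passed, at 0.63.

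Ribosomal protein genes were higher in 71 and lower in 0 of 78, with a median of 0.87. RPL21 had 397, 388 and 375 RPKM with EGCG+HC, against 123, 166 and 152 RPKM with HC. RPLP0, of the ribosomal stalk, did not pass (815 ± 16 RPKM with EGCG+HC and 588 ± 41.3 RPKM with HC). Under quantile normalization 27 of the 78 passed, at a median of 0.50, and rescaling over genes other than mitochondrial ones left 61. Noncoding RNAs that host snoRNAs, which guide ribosomal RNA modification, moved alongside, with 13 higher and 3 lower of 17 in their list. SNHG3 (1.77), DANCR (1.65), SNHG1 (1.15) and GAS5 (0.73) rose, whereas the 3 that fell were the nuclear or imprinted RNAs NEAT1 (-2.84), H19 (-0.98) and MALAT1 (-0.90). NEAT1, the scaffold of paraspeckles, had 37.5, 40.2 and 36.2 RPKM with EGCG+HC, against 269, 280 and 286 RPKM with HC.

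The mitochondrial ribosomal RNAs rose apart from the mitochondrial mRNAs. MT-RNR2, the large ribosomal RNA, had 2667, 2739 and 2834 RPKM with EGCG+HC, against 433, 468 and 448 RPKM with HC, and MT-RNR1 averaged 377 ± 4.05 RPKM with EGCG+HC and 155 ± 10.3 RPKM with HC. Of 13 mitochondrial mRNAs 4 rose and 0 fell, at a median of 0.52 that became -0.03 under quantile normalization, and MT-CO3 (2613 ± 19.2 RPKM with EGCG+HC and 1828 ± 196 RPKM with HC) did not pass. Nuclear genes of oxidative phosphorylation were higher in 10 and lower in 5 of 44. The higher share was near that of all genes (19.5%) and the lower share was under it (25.9%). The counts became 5 and 4 under quantile normalization and 7 and 7 after rescaling. Glycolysis genes were lower in 10 and higher in 0 of 26, and those of the citric acid cycle lower in 6 and higher in 0 of 15. Under quantile normalization 13 glycolysis and 4 citric acid cycle genes were lower, and after rescaling 12 and 9. PFKFB4, which makes the activator of phosphofructokinase, had 9.86 ± 0.369 RPKM with EGCG+HC and 36.4 ± 1.02 RPKM with HC, while HK2, hexokinase 2, had 67.2 ± 0.291 RPKM with EGCG+HC and 62.7 ± 2.88 RPKM with HC and did not pass.

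Genes of adhesion, matrix and guidance were mostly lower. In the matrix and integrin list 27 of 36 fell and 1 rose, at a median of -0.79. ITGA2, a collagen-binding integrin, had 6.26, 6.45 and 6.32 RPKM with EGCG+HC, against 45.9, 38.4 and 47.6 RPKM with HC. LAMB1, a laminin chain, was lower (-2.46), as were TIMP3, an inhibitor of metalloproteinases (-2.34), and LOXL2, which crosslinks collagen (-1.75). The member that rose was the protease gene ADAMTS1 (1.13). Of 32 axon guidance genes 18 fell and 2 rose, SEMA4D (0.95) and EFNB2 (0.69). SEMA3A, a secreted semaphorin, had 2.97, 2.96 and 3.4 RPKM with EGCG+HC and 7.33, 6.59 and 7.26 RPKM with HC. The receptors PLXNA1 (-1.21) and PLXNB2 (-1.20) were lower as well. SEMA7A did not pass (17 ± 0.262 RPKM with EGCG+HC and 23.3 ± 1.1 RPKM with HC), and SEMA3F stayed under 1 RPKM on average in both groups and was not tested.

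Receptor kinase genes were mostly lower, growth factor ligands less clearly. Of 14 receptor tyrosine kinase genes 9 fell and 0 rose. Of 16 ligand genes 5 fell and 1 rose, and of 20 genes of the mTOR complexes and their brakes 7 fell and 3 rose. Over all genes 25.9% fell and 19.5% rose. PDGFRB, the platelet-derived growth factor receptor beta, had 4.67, 4.38 and 4.28 RPKM with EGCG+HC, against 32.9, 30.1 and 30.9 RPKM with HC. EGFR averaged 10.6 ± 0.046 RPKM with EGCG+HC and 23.5 ± 2.54 RPKM with HC, and AXL, a kinase receptor tied to invasion, averaged 19.2 ± 0.891 RPKM with EGCG+HC and 56.4 ± 4.2 RPKM with HC. Downstream, the kinase MTOR (-1.61) was lower and the adaptor IRS2 (1.62) was higher. The kinase AKT1 fell to 14.1 ± 0.273 RPKM with EGCG+HC, against 29.2 ± 1.83 RPKM with HC. In TGF-beta and BMP signalling 12 of 28 fell and 3 rose, TGFB2 to 2.51 ± 0.194 RPKM with EGCG+HC, against 21.8 ± 0.383 RPKM with HC, and TGFB1 by 0.62 on the log2 scale. Of 26 genes of cytokines, chemokines and NF-kB regulators 5 rose and 8 fell. Among 16 of tissue factor and plasminogen activation 1 rose and 4 fell. The rises were those of single genes. IL8, a chemokine of neutrophils, had 73.3, 75.1 and 75.5 RPKM with EGCG+HC, against 14.7, 16.7 and 15.8 RPKM with HC. SERPINB2, an inhibitor of plasminogen activation, rose by 2.23. RND3, which opposes RhoA and loosens actin fibres, had 277, 278 and 282 RPKM with EGCG+HC, against 46.2, 47.4 and 47.5 RPKM with HC, while 16 of 38 actin genes fell and 2 rose. Of 18 genes of hypoxia-inducible factors and their targets, 8 fell and 2 rose, at a median of -0.57. Relative to control, HC alone had raised 9 and lowered 0 of the 18. HIF1A (71.3 ± 1.08 RPKM with EGCG+HC and 105 ± 4.08 RPKM with HC), VEGFA (24.1 ± 0.561 RPKM with EGCG+HC and 27.5 ± 0.234 RPKM with HC) and KLF4 (4.64 ± 0.223 RPKM with EGCG+HC and 2.8 ± 0.264 RPKM with HC) did not pass. HIF1A did pass under quantile normalization (-0.78) and after rescaling (-0.68), and KLF4 under quantile normalization (0.71). E2F4 fell by 0.81. The qPCR reference genes TBP (0.31) and GUSB (-0.19) did not pass, because their changes were under 1.5-fold. Both met the limit on the adjusted p of limma, TBP higher and GUSB lower with EGCG+HC.

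The number of exons in the longest annotated transcript of a gene, looked at after these values were known, went with its change. That transcript can be an unspliced model rather than the main mRNA, so the number can be too low. For RPL18 it is 1 exon of 3844 bases. Of the 14165 tested genes 84.1% matched a gene in GENCODE v44lift37, and 11160 of them were protein coding. The median log2 fold change was 0.10 in 1669 genes of 2 to 3 exons, -0.14 in 2399 genes of 7 to 10 exons, -0.43 in 1619 genes of 16 to 25 exons and -0.73 in 758 genes of more than 25 exons. In the last group 62.1% were lower and 2.24% higher, and its median level was 4.27, 4.38 and 4.34 RPKM in the EGCG+HC libraries and 8.38, 7.37 and 8.09 RPKM in the HC libraries.

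This order was also present at a fixed transcript length. Among transcripts of 3 to 6 kb the median was 0.06 for up to 6 exons, -0.20 for 7 to 15, -0.50 for 16 to 25 and -0.74 for more than 25. Transcript length alone spread the medians less: genes with a longest transcript over 8 kb had a median of -0.28. Under quantile normalization the group of more than 25 exons had a median of -0.64. The same group changed by -0.28 with EGCG against control and by 0.04 with HC against control in LN18, and by -0.09 with EGCG+HC against HC in 1321N1. Lists differ in exon number. The median was 17 for mitosis, 16.5 for matrix, 20 for receptor kinases, 17 for axon guidance and 15 for DNA repair. It was 9 for cholesterol synthesis and 4 for ribosomal proteins. The part of exon number in the change of each list was not tested. COL7A1 with 118 exons and FASN with 43 fell by this count, but so did ID1 with 1 exon and CCND1 with 5. The 1 exon of ID1 spans its whole locus, as in an unspliced model.

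**Figure D3:**
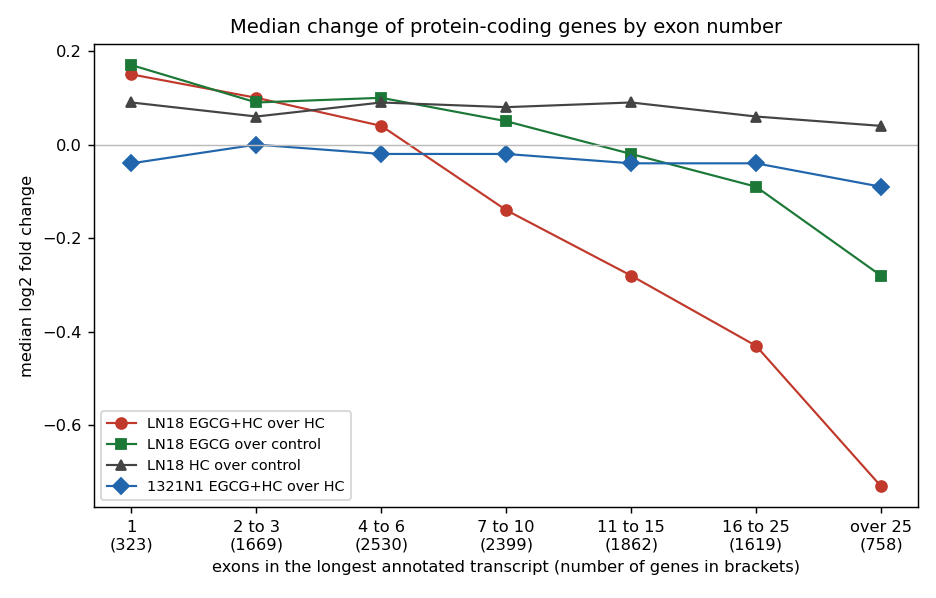
Median log2 fold change of protein-coding genes by the exon number of their longest annotated transcript, for 4 comparisons. The LN18 EGCG+HC over HC line falls to -0.73 above 25 exons, EGCG over control in LN18 to -0.28, and the other lines lie at 0.04 and -0.09 there.

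Whether EGCG did the same without HC was asked with the difference of differences over the 12 LN18 libraries, (EGCG+HC minus HC) minus (EGCG minus control), which share no library. Of 13686 genes, 1988 (14.5%) had a more positive and 3159 (23.1%) a more negative change with HC present. Of these calls 61.4% were negative, against 52.1% under quantile normalization and 67.8% after rescaling. EGCG alone against control gave fewer calls, 1199 higher (9.11%) and 1276 lower (9.70%) of 13157. Of 12926 genes tested in both, 3553 were lower and 2145 higher here, and 1259 were lower and 1171 higher with EGCG alone. Of the 1259 genes that fell with EGCG alone, 69.0% fell here too, and of the 1171 that rose with it, 39.0% rose here. Conversely, 24.5% of the 3553 lower genes and 21.3% of the 2145 higher genes here moved the same way with EGCG alone.

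Sterol genes stood out in this test with 25 of 30 more negative with HC. HMGCS1 had 8.94 RPKM with EGCG+HC and 59.5 RPKM with HC, and 54.1 RPKM with EGCG and 27.3 RPKM in controls. EGCG thus lowered the HMGCS1 level in the presence of HC and raised it in its absence, with a difference of -3.57 (SE 0.04, adjusted p = 2.85e-13), the most negative of all genes at 10 RPKM or more. INSIG1 (-3.36), the crosslinking enzyme LOX (-3.28), the protease-activated receptor gene F2RL2 (-3.10) and STARD4 (-2.98) followed. LOX averaged 15.9 RPKM with EGCG+HC and 30.9 RPKM with HC, and 33.3 RPKM with EGCG and 5.68 RPKM in controls. In mitosis 38 of 48 genes had a more negative change with HC, and in ribosomal proteins 56 of 78 a more positive one.

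At the other end, RBM14, a paraspeckle coactivator, had the most positive difference (3.73, SE 0.13, adjusted p = 9.26e-10). It averaged 19.8 RPKM with EGCG+HC and 4.55 RPKM with HC, and 3.12 RPKM with EGCG and 13.5 RPKM in controls, so its direction turned with HC. AC005682.6 (3.63), DAP3P1 (3.62), RP11-496I2.4 (3.58) and CTC-497E21.5 (3.57), a pseudogene and clone-named transcripts, came next. DAP3P1 averaged 13.2 RPKM with EGCG+HC and was at 0 in 2 of 3 HC libraries. EGR1, an immediate early factor, had 7.37 RPKM with EGCG+HC and 2.57 RPKM with HC, and 1.96 RPKM with EGCG and 8.86 RPKM in controls (difference 2.96). FOSL1 (2.50), TNFRSF10D (3.07) and PCNA (2.01) likewise rose with EGCG only where HC was present and fell with EGCG where it was absent. For other genes the change was alike in size: CCND1 changed by -1.92 with HC and -1.79 without it (difference -0.13, SE 0.07, adjusted p = 0.121), and CTH by 1.43 and 1.51 (difference -0.08, SE 0.08, adjusted p = 0.391). Across both comparisons 177 of 12926 genes were called in opposite directions.

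**Figure D4:**
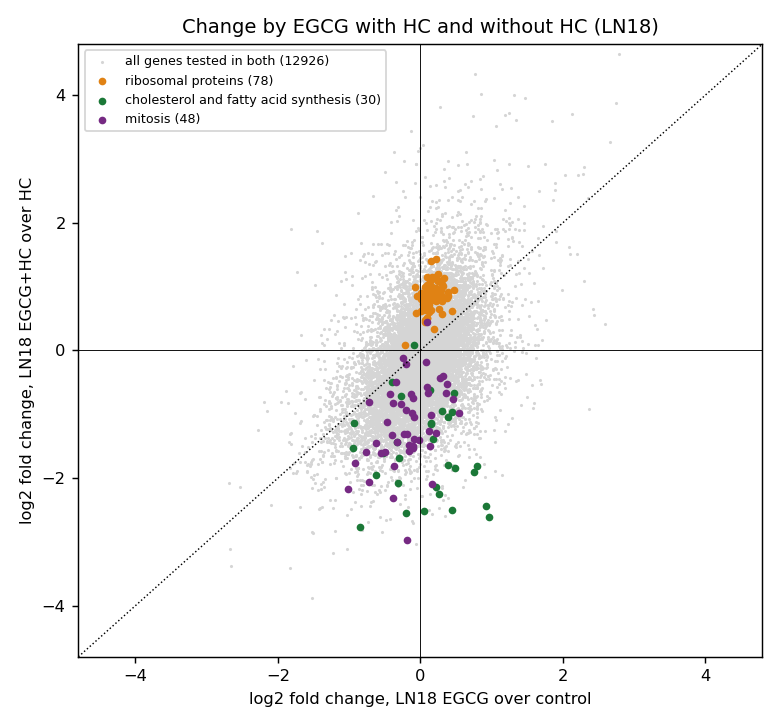
Each point is a gene, with the log2 fold change of LN18 EGCG+HC over HC on the vertical axis and of EGCG over control on the horizontal axis, and the dotted line marks equal change. Ribosomal protein genes lie above the line (56 of 78 with a more positive change), and most cholesterol and mitosis genes lie below it (25 of 30 and 38 of 48 with a more negative change).

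The same pair of treatments in 1321N1 gave 1693 higher (12.2%) and 1002 lower genes (7.23%) of 13864. HC was given at 20 µg/ml there and 10 µg/ml in LN18. The study also grew 1321N1 with a higher share of foetal bovine serum than LN18. Line, HC dose and serum therefore cannot be told apart. Genes that were called alike numbered 655 higher and 371 lower, and 190 of 12380 were called in opposite directions. The difference of the changes, LN18 minus 1321N1, was past the threshold in 5845 of 14060 genes (41.6%), of which 60.6% were more negative in LN18. That share was 50.6% under quantile normalization and 70.7% after rescaling over genes other than mitochondrial ones.

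Mitosis genes differed between the lines, with 39 lower and 0 higher of 48 in LN18, and 1 lower and 16 higher of 48 in 1321N1. AURKA, a spindle kinase, changed by -1.32 in LN18 and 0.83 in 1321N1, where it averaged 33.1 RPKM with EGCG+HC and 18.1 RPKM with HC (difference -2.15). KIF18A, a kinesin of chromosome alignment, differed by -2.82 and CCNB2 by -1.93. Of 22 ER chaperone genes 2 were higher and 5 lower in LN18, and 0 were higher and 9 lower in 1321N1. HSPA5, called in opposite directions, averaged 496 RPKM with EGCG+HC and 236 RPKM with HC in LN18, and 539 RPKM with EGCG+HC and 1461 RPKM with HC in 1321N1 (difference 2.51). The chaperone gene DNAJB9 (1.98) and, outside that list, HERPUD1 (2.62) and SESN2 (2.36) were also called higher in LN18 and lower in 1321N1. The receptor AXL (-2.86) and SEMA3A (-2.09) fell in LN18 and rose in 1321N1. F3 averaged 13.8 RPKM with EGCG+HC and 10.5 RPKM with HC in 1321N1, and ID1 fell there too, to 16.7 RPKM with EGCG+HC, against 60.8 RPKM with HC. HMOX1, which rose in LN18, averaged 1731 RPKM with EGCG+HC and 1395 RPKM with HC in 1321N1 and did not pass there. Of 29 cholesterol and fatty acid genes tested in 1321N1, 7 fell and 0 rose.

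**Figure D5:**
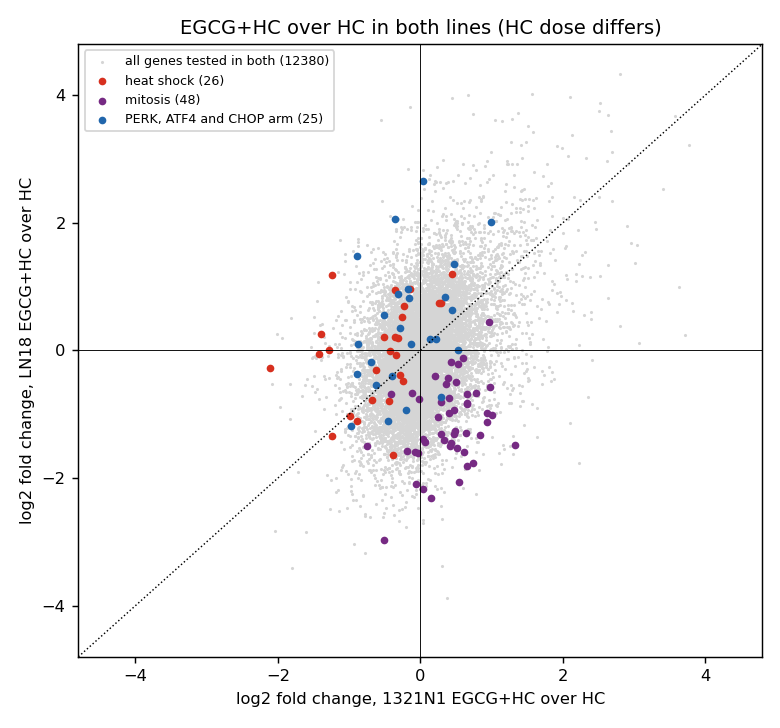
Each point is a gene, with the log2 fold change of EGCG+HC over HC in LN18 on the vertical axis and in 1321N1 on the horizontal axis, where the HC dose was higher. Mitosis genes lie mostly in the lower right (39 of 48 lower in LN18, 16 of 48 higher in 1321N1), and several stress genes lie in the upper left, among them SESN2 at 1.47 in LN18 and -0.89 in 1321N1.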

How the data were processed

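Poly(A) RNA of both lines was made into unstranded libraries with the TruSeq RNA v2 kit and sequenced in pairs on an Illumina instrument. Per the labels, reads were checked with FastQC and aligned to GRCh37 (hg19), while the sources used here do not give the annotation or how reads were counted. The authors deposited 1 table a group with RPKM values of each library, which was the unit analysed. Names that a spreadsheet had turned into dates were dropped, 26 from the EGCG+HC table and 25 from the HC table.

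Genes in both tables with a mean of at least 1 RPKM were tested by limma 3.58.1 (limma-trend, R 4.3.3) on log2(RPKM + 1), two-sided, with Benjamini-Hochberg adjustment over all genes tested, and called at a fold of 1.5 or more with an adjusted p of 0.05 or less. A fold change on this scale understates the change of low genes. RPKM are not counts, so counting error was taken from recovered depth: 86.5 to 92.8% of low values were whole reads, and 1 RPKM in 2 kb had a counting error of 15.6 to 17.8%. Replicates differed beyond counting noise, so all 3 libraries a group were kept. Simulated data of 14165 genes held changes only in genes of about 10 RPKM or more, for the comparison of EGCG+HC with HC. Noise was normal on the log2 scale, with the SD of each gene within groups. Of these changed genes, 52% of those changed 1.5-fold and 98% of those changed 2-fold were recovered. A true change of 1.5-fold lies at the calling limit, where estimates fall on either side, so the 52% does not measure power. Recovery in lower genes was not simulated, and 5290 of the 14165 genes reached a mean of 10 RPKM.

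Promoters came from RefSeq (GRCh38.p14) and exon numbers from the longest transcript of each gene in GENCODE v44lift37. Genes named are the 10 largest changes each way at 10 RPKM or more without overlap, up to 4 called members of each list, the 5 largest differences each way between EGCG with and without HC, genes the study singled out, and TBP and GUSB. Other list members named, the exon number groups and examples of what did not pass were chosen after their values were seen. The members and lists were chosen with earlier results of these data known. Other settings tried were quantile normalization, libraries rescaled without their mitochondrial genes, a pseudocount of 0.1, other filters, thresholds and fits, the replicate number as a block, and each LN18 replicate left out. Some genes that meet the naming rule are not reported here.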

Additional observations from a re-analysis of the deposited data

Results flagged for a closer look

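Some genes changed in opposite directions with EGCG depending on whether HC was present in LN18, tested as the difference of the log2 changes (limma). The difference was positive, with a rise only in the presence of HC and a fall in its absence, for RBM14 (3.73), TNFRSF10D (3.07), EGR1 (2.96), FOSL1 (2.50), PCNA (2.01), ADAMTS1 (1.95) and E2F3 (1.62). It was negative, with a fall in the presence of HC and a rise in its absence, for HMGCS1 (-3.57), INSIG1 (-3.36), LOX (-3.28), F2RL2 (-3.10), PFKFB4 (-2.67) and MSMO1 (-2.65).

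Other genes changed in opposite directions in LN18 and 1321N1 when EGCG+HC was set against HC. The HC dose and the serum differed between the lines. The difference, LN18 minus 1321N1, was positive for HERPUD1 (2.62), HSPA5 (2.51), SESN2 (2.36), OSGIN1 (2.05), DNAJB9 (1.98) and EFNB2 (1.55). It was negative for AXL (-2.86), KIF18A (-2.82), AURKA (-2.15), SEMA3A (-2.09), CCNB2 (-1.93) and KIF23 (-1.49).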

How the results depend on the processing

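The 6430 calls of EGCG+HC against HC became 2358 (1116 higher, 1242 lower) at a mean of at least 10 RPKM, where fewer genes are tested, 11546 (5063 higher, 6483 lower) without any fold change limit and 4073 (1646 higher, 2427 lower) under Bonferroni adjustment. The difference between EGCG with and without HC gave 1928 calls (720 higher, 1208 lower) at 10 RPKM and 9961 (3968 higher, 5993 lower) with no limit on the fold change. Leaving out a replicate gave 6339 to 6509 calls (2647 to 2872 higher, 3558 to 3712 lower) for the main comparison, 5058 to 5236 (1886 to 2027 higher, 3112 to 3217 lower) for the difference with and without HC and, with only the LN18 libraries left out in turn, 5792 to 5866 for the difference between lines.

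Same-numbered EGCG+HC and HC libraries deviated from their group means with correlations of 0.004, -0.064 and -0.001, so the numbers did not pair them. The replicate block gave 6435 calls (2771 higher, 3664 lower) for EGCG+HC against HC, 5154 for the difference with and without HC and 5848 for the difference between lines.

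Of 145 named genes 118 kept their side of the threshold under every alternative run and 0 reversed. GARS (0.49) and SRXN1 (0.55) no longer passed under quantile normalization, and EFNB2 (0.58) and SLC3A2 (0.50) after rescaling. CDK1 (-0.65) and PMVK (-0.60) passed after rescaling, HIF1A under quantile normalization (-0.78) and rescaling (-0.68), and KLF4 under quantile normalization and a pseudocount of 0.1 (0.71 in both). HIF1A (-0.59) and MT-CO3 (0.59) passed without HC replicate 2, and KLF4 passed at 0.59 to 0.62 without any of 3 libraries in turn, EGCG+HC replicates 2 and 3 and HC replicate 1. Genes near 1 RPKM are limited by depth.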
